A study of Mus musculus with 8 samples.

Results

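The genes examined were 8 that encode ion channels linked to the sensing of mechanical force: Piezo1, Piezo2, Tmem63a, Tmem63b, Trpv2, Trpv4, Trpc1 and Trpm7. They were chosen by name out of 57180 genes in the deposited tables, with earlier results of these data known. All 8 were matched by gene identifier to a mouse symbol and passed the filter on low counts. RNA was sequenced from muscle stem cells (MuSCs), the resident progenitors of skeletal muscle, taken freshly from mice and purified by flow cytometry. The 4 control libraries (replicates 2, 5, 7 and 8) are labelled WT. The 4 RhoA het libraries (replicates 5, 6, 7 and 8) come from mice that carry 1 floxed and 1 intact RhoA allele in their muscle stem cells, written SC-RhoAfl/+, and their genotype label reads RhoA knockdown. The Cre driver, the age and the sex of the mice are not given in the sources used here. It is also not given whether each library came from a separate animal. The p-values therefore measure the spread between these libraries, which may be partly technical. The series set out to find expression and splicing changes that follow reduced activity of RhoA, a small GTPase that links mechanical and receptor signals to the actin cytoskeleton.

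Piezo channels are large trimeric pores that membrane tension opens directly, letting calcium and other cations into the cell. TMEM63 proteins belong to the OSCA family of tension-gated channels and are smaller than Piezo proteins. TRP channels are cation channels with many stimuli: Trpv2 and Trpv4 have been linked to stretch and osmotic swelling, Trpc1 to stretch-activated and store-operated calcium entry, and Trpm7 joins a channel permeable to magnesium and calcium to a protein kinase domain. In muscle stem cells, Piezo1 is known for calcium signals that act on the cytoskeleton and on regeneration. RhoA is usually placed downstream of such signals, and the comparison asks whether transcripts of the channels differ between control and RhoA het libraries.

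The libraries held 19138763 to 25606342 fragments assigned to genes. Rhoa, the targeted gene, was measured at 132.0, 148, 121 and 136 TPM in control replicates 2, 5, 7 and 8 and at 117, 111, 112 and 125 TPM in RhoA het replicates 5, 6, 7 and 8. The groups overlapped, and the log2 fold change was -0.29 (SE 0.13; in edgeR the p was 0.0495 before and 1.00 after adjustment over all genes), which is 0.816-fold with a 95% confidence interval of 0.666 to 0.999. TPM is a count divided by gene length and scaled to a common total per library. All 10 muscle stem cell markers checked were detected in every library, with Pax7, the transcription factor that defines these cells, at 49.6, 71.2, 100.1 and 60.1 TPM in control replicates 2, 5, 7 and 8 and at 46.6, 55.4, 56.5 and 46.9 TPM in RhoA het replicates 5, 6, 7 and 8. The groups overlapped for Pax7 in TPM but not in CPM, with RhoA het lower (log2 fold change -0.51, SE 0.18, edgeR unadjusted p 0.0173, adjusted p 1.00; exact permutation p 0.0286), and blocked by replicate number it was -0.65 (edgeR unadjusted p 0.000181, adjusted p 0.143). Over the 10 markers, the log2 fold change was above 0 for 5 and below 0 for 5, with a median of -0.0010. The part of the Pax7 difference in the levels of the channel genes was not tested. Control replicate 2 and RhoA het replicate 6 differed from the rest in sex-linked transcripts (at least 14358 fragments on 4 Y-linked genes, against at most 2 elsewhere). Xist, the X-linked transcript of female cells, had 5 and 7 fragments in these libraries and 3539 to 5188 elsewhere. The libraries of a group thus did not all come from 1 animal. RhoA het replicate 6 was also the highest of the 8 libraries for 10 of 10 endothelial markers. RhoA het replicate 8 was the highest for 5 of 7 markers of mural cells, the contractile cells around vessels, and RhoA het replicate 6 for the other 2. For the 8 channel genes, results that rest on these libraries are given with and without them.

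Promoter sequences are shown for 4 members that differ in level and in evenness: Tmem63a, the most abundant, Piezo1, the more abundant Piezo gene, Trpv2, which differed widely between libraries, and Trpm7, the most abundant TRP gene of the set. They are the 250 bases before the transcription start from RefSeq on GRCm38.p6, a build other than the mm39 build of the counts, written 5′ to 3′ on the gene's strand, and 7 of the 8 members had an entry (Piezo2 was the other). Capitals mark matches on either strand to TATAAA, to GGGCGG (GC box), to CACGTG, to GGAATG (the TEAD motif), to CCAAT and to the CArG box, the motif known for serum response factor; none of the matches shown overlap.
Tmem63a, chr1:180942268-180942517, plus strand: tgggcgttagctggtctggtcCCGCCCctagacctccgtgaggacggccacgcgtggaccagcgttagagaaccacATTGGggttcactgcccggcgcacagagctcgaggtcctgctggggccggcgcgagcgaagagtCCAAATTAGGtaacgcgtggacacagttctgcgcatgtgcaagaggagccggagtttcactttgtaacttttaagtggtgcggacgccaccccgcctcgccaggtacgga
Piezo1, chr8:122551330-122551579, minus strand: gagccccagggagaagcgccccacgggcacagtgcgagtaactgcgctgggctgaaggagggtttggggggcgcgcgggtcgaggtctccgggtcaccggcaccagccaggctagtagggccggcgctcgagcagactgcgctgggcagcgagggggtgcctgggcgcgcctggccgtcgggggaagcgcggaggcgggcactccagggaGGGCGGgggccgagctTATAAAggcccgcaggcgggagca
Trpv2, chr11:62574236-62574485, plus strand: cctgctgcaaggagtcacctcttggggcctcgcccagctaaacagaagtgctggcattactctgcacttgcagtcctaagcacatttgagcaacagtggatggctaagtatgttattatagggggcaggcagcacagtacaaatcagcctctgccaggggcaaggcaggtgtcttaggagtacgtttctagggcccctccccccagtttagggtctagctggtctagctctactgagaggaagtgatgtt
Trpm7, chr2:126876262-126876511, minus strand: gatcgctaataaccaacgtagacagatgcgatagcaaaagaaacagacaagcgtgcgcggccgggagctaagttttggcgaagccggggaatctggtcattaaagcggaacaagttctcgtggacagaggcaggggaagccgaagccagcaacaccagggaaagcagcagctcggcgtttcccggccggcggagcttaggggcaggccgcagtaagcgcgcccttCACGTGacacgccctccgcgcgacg
The Tmem63a window held a CArG box 110 to 101 bases before the start, a GC box and a CCAAT match, and a CArG box was found in 1.47% of the 32851 promoter windows of this length. The Piezo1 window held TATAAA 24 to 19 bases before the start (TATAAA in 12.4% of windows) and a GC box (32.7%). The Trpm7 window held CACGTG 25 to 20 bases before the start (6.02% of windows), and CCAAT was in 33.8%. The Trpv2 window shown, the most upstream of 3 listed for the gene, matched none of the motifs; GGAATG, in 12.6% of all windows, was in another Trpv2 window. The windows also differed in CpG dinucleotides, with 23 in Tmem63a, 26 in Piezo1, 26 in Trpm7 and 2 in the Trpv2 window shown, against a median of 6 over all windows. Trpv4, Trpc1 and Tmem63b had 22, 17 and 31. A match describes the letters only, and binding was not measured.

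The 8 genes covered more than an order of magnitude in level, and their order was stable at the top. Tmem63a ranked first and Trpm7 second by TPM within each of the 8 libraries. Median TPM over all libraries was 37.7 for Tmem63a, 22.8 for Trpm7, 11.4 for Piezo1, 11.3 for Tmem63b, 3.07 for Piezo2, 2.23 for Trpv2, 2.19 for Trpc1 and 1.35 for Trpv4. Tmem63a thus stood above 79.4% of the genes tested and Trpv4 above 15.8%. Piezo1 and Tmem63b could not be ordered: the median of Piezo1 was slightly higher, yet Tmem63b was above it in 7 of 8 libraries. These genes were separated from Piezo2 in every library, and their ranges did not overlap with its range. Below that, Piezo2, Trpv2, Trpc1 and Trpv4 changed places between libraries, and the ranges of neighbours in this order overlapped. In RhoA het replicate 8, Trpv2 at 13.4 TPM also stood above Piezo1 at 12.2 TPM.

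**Figure D1:**
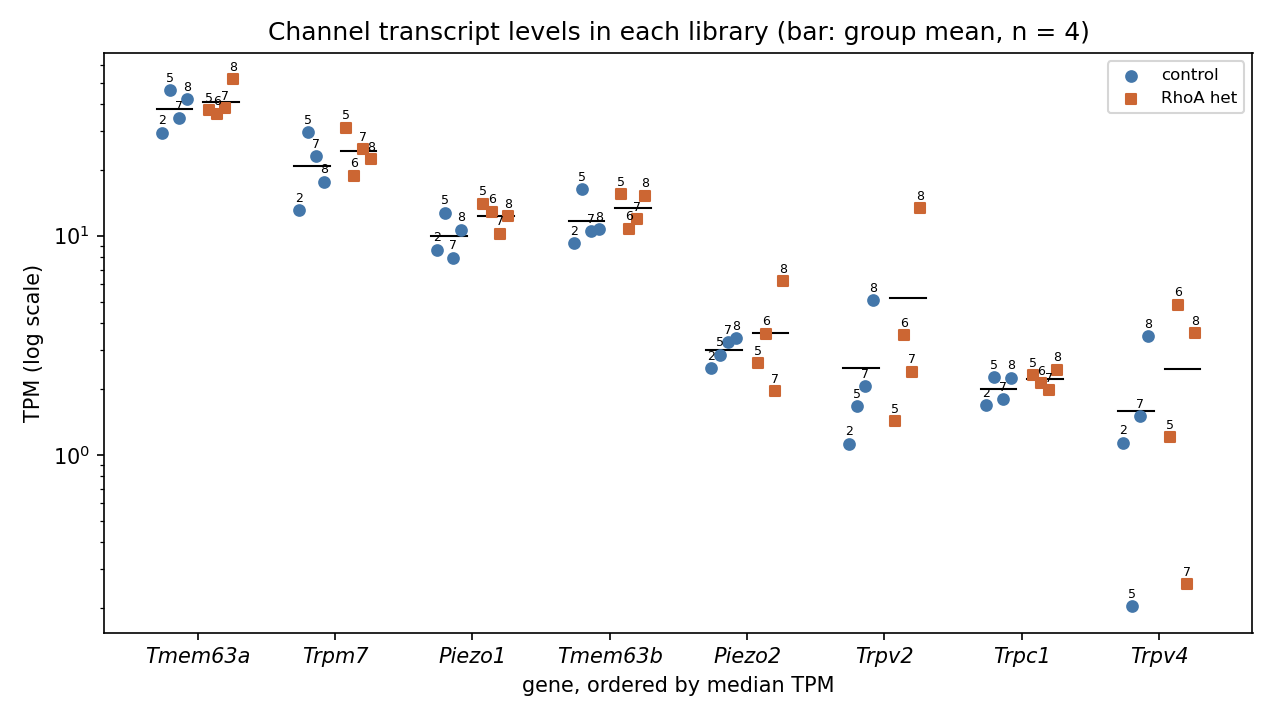
Deposited TPM on a log axis for the 8 channel genes, 1 point per library with its replicate number, circles for control and squares for RhoA het, and a bar at each group mean (n = 4). The points of Tmem63a, Trpm7, Piezo1, Tmem63b and Trpc1 stay within a 2.38-fold range, while those of Trpv2 and Trpv4 spread over 11.9-fold and 23.7-fold.

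None of the 8 genes passed the threshold between the groups. At an adjusted p under 0.05 in edgeR's quasi-likelihood test, 0 of 8 members and 0 of 15660 genes tested were called (0%). At an unadjusted p under 0.05 it was 0 of 8 members, against 2.38% of all genes. In CPM, the count scaled to the library size after TMM normalisation, the groups overlapped for 8 of 8 members, and 1.81% of all genes had groups that did not overlap. The fitted log2 fold change was above 0 for 8 of 8 members and for 49.9% of the genes tested, with a median of 0.17 over the members and -0.00071 over all genes. That direction did not hold for 5 of the 8 when libraries were left out (Piezo2, Tmem63a, Trpv2, Trpv4 and Trpc1). In whole-population RNA, fewer cells of a type and less RNA per cell cannot be told apart.

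**Figure D2:**
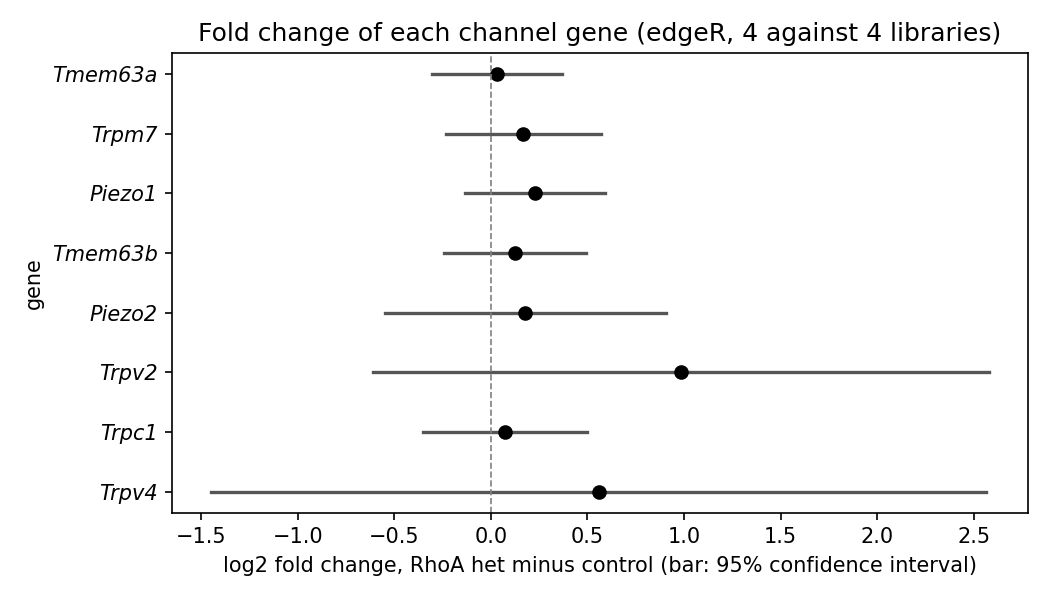
Log2 fold change of RhoA het against control for each channel gene (point) with its 95% confidence interval (bar), from edgeR over 4 against 4 libraries. Every interval contains 0, and the intervals of Trpv2 (-0.61 to 2.58) and Trpv4 (-1.45 to 2.56) are the widest.

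Piezo1 (ENSMUSG00000014444.18; mm39 chromosome 8, 123208437 to 123278068, minus strand) encodes the Piezo channel of endothelium, red cells and many other cell types. It was at 8.64, 12.7, 7.95 and 10.6 TPM in control replicates 2, 5, 7 and 8 and at 14.0, 12.9, 10.2 and 12.2 TPM in RhoA het replicates 5, 6, 7 and 8. Control replicates 2 and 7 lay below all RhoA het libraries, and the other controls lay among them. The group means were 9.99 ± 2.16 and 12.3 ± 1.59 TPM (SD, n = 4 each). The log2 fold change was 0.23 (SE 0.16, 95% confidence interval -0.13 to 0.59, edgeR adjusted p 1.00; two-sided exact permutation p 0.229, smallest possible 0.0286), an interval of 0.911-fold to 1.51-fold. Within the libraries that share a number, Piezo1 was higher in RhoA het in 3 of 3, by 0.18, 0.36 and 0.080 on the log2 CPM scale for numbers 5, 7 and 8. Without control replicate 7, the lowest library, the log2 fold change was 0.11 (edgeR adjusted p 1.00). Without RhoA het replicate 6, the library with the highest endothelial markers (460 TPM in sum over 10 genes, against 42.3 to 122 TPM in all other libraries), it was 0.17. Of the exonic bases of Piezo1, 24.6% are shared with exons of Ctu2 on the opposite strand. The counting used no strand and no option for fragments that overlap several genes, so the level of Piezo1 is uncertain to that extent.

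Piezo2 (ENSMUSG00000041482.18; mm39 chromosome 18, 63143284 to 63520254, minus strand) encodes the Piezo channel of touch and proprioceptive neurons. It was at 2.48, 2.87, 3.28 and 3.42 TPM in control replicates 2, 5, 7 and 8 and at 2.62, 3.57, 1.96 and 6.22 TPM in RhoA het replicates 5, 6, 7 and 8. The controls were close together, while the RhoA het libraries held both the lowest and the highest value. For Piezo2 the log2 fold change was 0.18 (SE 0.32, 95% confidence interval -0.55 to 0.91, edgeR adjusted p 1.00; exact permutation p 0.914). Without RhoA het replicate 8 it turned to -0.21 (edgeR adjusted p 1.00). Without both RhoA het replicates 6 and 8, a choice made after seeing the data, it was -0.53 (edgeR unadjusted p 0.04, adjusted p 0.999). Piezo1 exceeded Piezo2 in TPM in all 8 libraries, by 1.97-fold in RhoA het replicate 8 to 5.36-fold in RhoA het replicate 5. The log2 ratio averaged 1.72 ± 0.363 in control and 1.91 ± 0.674 in RhoA het (SD, n = 4 each), with overlapping values.

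Tmem63a (ENSMUSG00000026519.17; mm39 chromosome 1, 180769909 to 180802677, plus strand) and Tmem63b (ENSMUSG00000036026.16; mm39 chromosome 17, 45971097 to 45997831, minus strand) are the TMEM63 channels of the set. Tmem63a was at 29.5, 46.3, 34.4 and 41.8 TPM in control replicates 2, 5, 7 and 8 and at 37.3, 36.1, 38.1 and 51.7 TPM in RhoA het replicates 5, 6, 7 and 8. The highest library was RhoA het replicate 8 and the lowest control replicate 2, with the other 6 between them. The log2 fold change was 0.032 (SE 0.15, 95% confidence interval -0.31 to 0.37, edgeR adjusted p 1.00; exact permutation p 0.83). It turned to -0.099 without RhoA het replicate 8 and to -0.039 without control replicate 7, and was 0.0020 without control replicate 2. Tmem63b was at 9.23, 16.3, 10.5 and 10.7 TPM in control replicates 2, 5, 7 and 8 and at 15.5, 10.8, 11.9 and 15.2 TPM in RhoA het replicates 5, 6, 7 and 8. Values above 15 TPM occurred in both groups, in control replicate 5 and RhoA het replicates 5 and 8. Its log2 fold change was 0.12 (SE 0.16, 95% confidence interval -0.24 to 0.49, edgeR adjusted p 1.00; exact permutation p 0.486), and between 0.054 and 0.23 with any 1 library left out. Tmem63a exceeded Tmem63b by 2.41-fold to 3.91-fold over the 8 libraries, with a log2 ratio of 1.71 ± 0.19 in control and 1.61 ± 0.232 in RhoA het (SD, n = 4 each). Exons of other genes on the opposite strand share 7.73% of the exonic bases of Tmem63b (Mrpl14 and Gm16172) and 3.5% of those of Tmem63a.

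Trpm7 (ENSMUSG00000027365.15; mm39 chromosome 2, 126633485 to 126718150, minus strand) encodes the channel joined to a kinase. It was at 13.1, 29.7, 23.1 and 17.6 TPM in control replicates 2, 5, 7 and 8 and at 31.1, 18.8, 24.9 and 22.4 TPM in RhoA het replicates 5, 6, 7 and 8. The libraries numbered 5 were the highest of their groups, and the groups overlapped over most of their range. Its log2 fold change was 0.17 (SE 0.18, 95% confidence interval -0.23 to 0.57, edgeR adjusted p 1.00; exact permutation p 0.4). Among the libraries that share a number it was higher in RhoA het in 3 of 3, by 0.11, 0.11 and 0.22 on the log2 CPM scale for numbers 5, 7 and 8. Blocked by number, the log2 fold change was 0.12 for Trpm7 (edgeR unadjusted p 0.29) and 0.18 for Piezo1 (edgeR unadjusted p 0.183). In that fit 0 of 8 members passed the adjusted threshold (0.0127% of all genes did) and 0 of 8 had an unadjusted p under 0.05 (5.26% of all genes). For Trpm7 the log2 fold change without the replicate block was 0.29 without control replicate 5 and 0.055 without RhoA het replicate 5. Without control replicate 2, the lowest library, it was 0.062.

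Trpc1 (ENSMUSG00000032839.14; mm39 chromosome 9, 95587135 to 95632428, minus strand) was the most even member. It was at 1.68, 2.26, 1.79 and 2.25 TPM in control replicates 2, 5, 7 and 8 and at 2.32, 2.13, 1.97 and 2.45 TPM in RhoA het replicates 5, 6, 7 and 8. The whole range was 1.45-fold, and the groups overlapped. Between the groups the log2 fold change was 0.073 (SE 0.19, 95% confidence interval -0.35 to 0.50, edgeR adjusted p 1.00; exact permutation p 0.6), and -0.0039 without control replicate 7. It rested on 99 to 126 fragments per library.

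Trpv2 (ENSMUSG00000018507.17; mm39 chromosome 11, 62465312 to 62491341, plus strand), a vanilloid-family channel also known from macrophages, smooth muscle and heart, had the largest fitted fold change of the set. It was at 1.13, 1.67, 2.06 and 5.09 TPM in control replicates 2, 5, 7 and 8 and at 1.42, 3.52, 2.40 and 13.4 TPM in RhoA het replicates 5, 6, 7 and 8. The libraries numbered 8 were the highest of both groups, and the remaining values overlapped. The means were 2.49 ± 1.78 TPM in control and 5.18 ± 5.54 TPM in RhoA het (SD, n = 4 each), so the SD in RhoA het exceeded the mean. The log2 fold change was 0.98 (SE 0.71, 95% confidence interval -0.61 to 2.58, edgeR adjusted p 1.00; exact permutation p 0.486). It rested on RhoA het replicate 8: without that library it was -0.074, and without control replicate 8 it was 1.63 (edgeR unadjusted p 0.0542, adjusted p 1.00). Blocked by replicate number (5, 7 and 8) it was 0.48, and by limma-voom with quality weights 0.38 (adjusted p 0.932 in edgeR and 1.00 in limma).

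Trpv4 (ENSMUSG00000014158.13; mm39 chromosome 5, 114760213 to 114796482, minus strand), a channel opened by osmotic swelling, warmth and lipids, was the least abundant and the most variable. It was at 1.14, 0.204, 1.50 and 3.48 TPM in control replicates 2, 5, 7 and 8 and at 1.20, 4.84, 0.256 and 3.60 TPM in RhoA het replicates 5, 6, 7 and 8. Each group held 1 library near the bottom of the range and at least 1 above 3 TPM. The lowest values were 5 fragments in control replicate 5 (exact Poisson 95% interval 1.62 to 11.7) and 7 in RhoA het replicate 7 (2.81 to 14.4), against 135 in RhoA het replicate 6 (113 to 160). These intervals cover counting error only and do not overlap between the low and the high libraries. Its log2 fold change was 0.56 (SE 0.89, 95% confidence interval -1.45 to 2.56, edgeR adjusted p 1.00; exact permutation p 0.771). Libraries that share a number went opposite ways, with RhoA het above control by 2.60 on the log2 CPM scale for number 5 and differences of -2.55 and -0.073 for numbers 7 and 8. Without RhoA het replicate 6 the log2 fold change was -0.064, and without control replicate 8 it was 1.27. The log2 ratio of Trpv2 to Trpv4 in TPM ran from -0.46 in RhoA het replicate 6 to 3.23 in RhoA het replicate 7.

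**Figure D3:**
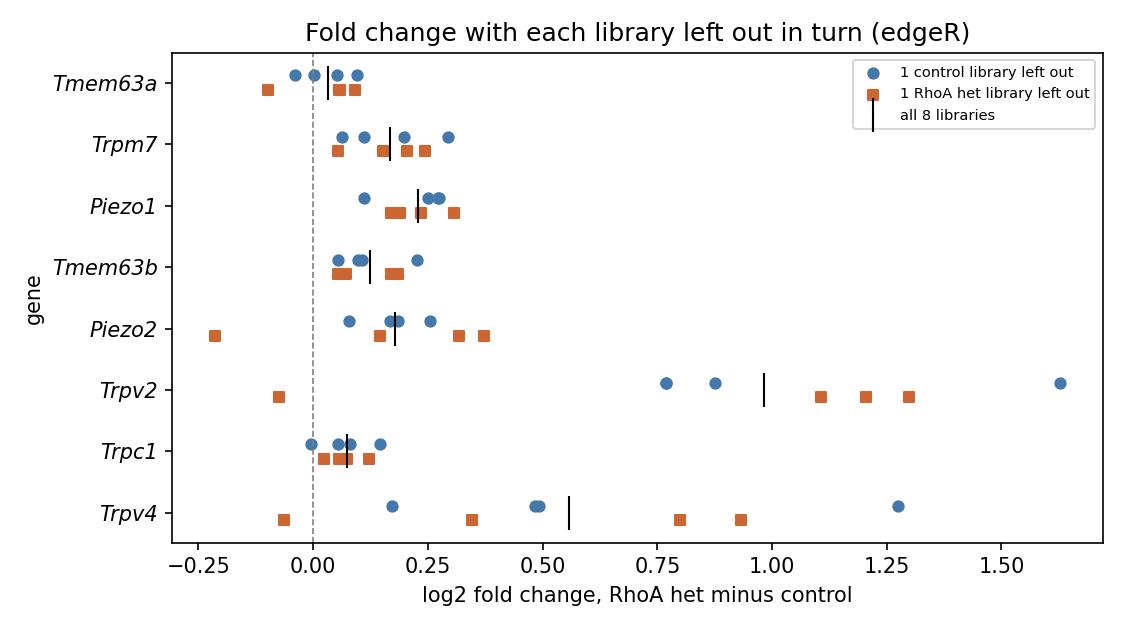
Log2 fold change of each channel gene in edgeR over all 8 libraries (vertical tick) and with 1 control library (circles) or 1 RhoA het library (squares) left out. Trpv2 runs from -0.074 to 1.63 and Trpv4 from -0.064 to 1.27, while Piezo1 stays between 0.11 and 0.31 and Trpm7 between 0.055 and 0.29.

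The members thus fell into steady and variable genes. Ranked by the SD of log2 CPM over the 8 libraries among the 15660 genes tested, Trpc1 lay at percentile 8.83, Tmem63a at 18.9, Tmem63b at 21.8, Piezo1 at 33.2 and Trpm7 at 38.0. Piezo2 lay at percentile 72.9, Trpv2 at 95.8 and Trpv4 at 98.9. The variable genes shared their high libraries. For Piezo2, Trpv2 and Trpv4, the 3 highest TPM values came from control replicate 8, RhoA het replicate 6 and RhoA het replicate 8, a pattern noticed in these genes and then counted: 3 of 8 members had it, against 4.14% of all genes tested. It crosses the groups and draws on 1 control and 2 RhoA het libraries.

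Of the 7 mural markers, 2 had this pattern of high libraries, Myh11 and Pdgfrb. Myh11, the smooth muscle myosin heavy chain, was at 50.0, 50.2 and 134 TPM in control replicate 8, RhoA het replicate 6 and RhoA het replicate 8, and at 8.55 to 18.4 TPM in the other 5. Pdgfrb, the platelet-derived growth factor receptor of pericytes, was at 26.4, 27.1 and 56.5 TPM in these and at 12.8 to 21.5 TPM elsewhere. The other 5 mural markers had other libraries among their highest: Rgs5, a pericyte signalling regulator, was higher in control replicate 7 (357 TPM) than in control replicate 8 (241 TPM). No mural marker was at 0 in all libraries. Their summed level was 296, 358, 495 and 429 TPM in control replicates 2, 5, 7 and 8 and 348, 820.2, 373 and 1019 TPM in RhoA het replicates 5, 6, 7 and 8, so RhoA het replicates 6 and 8 were the highest but control replicate 8 was below control replicate 7. Among the endothelial markers 1 of 10 (Cdh5) had the pattern. None of the 3 immune markers tested did, and Ptprc, the pan-leukocyte marker CD45, was at most at 0.742 TPM in any library. Lyz2, a lysozyme gene of macrophages and other myeloid cells, was at 209 to 438 TPM in 6 libraries but at 818 TPM in control replicate 8 and 789.95 TPM in RhoA het replicate 8, which were also the highest for Trpv2. The immune marker Cd68 did not follow Lyz2. It was at 6.28 TPM in control replicate 8 and 14.7 TPM in RhoA het replicate 8. Its range was 6.08 to 17.7 TPM, with the highest values in RhoA het replicate 5 (17.7 TPM) and control replicate 7 (15.8 TPM). The macrophage markers Adgre1 and Csf1r, below the filter on low counts, reached at most 0.677 and 2.61 TPM, both in RhoA het replicate 6. None of the 10 muscle stem cell markers had the pattern of high libraries. The part of other cell types in the levels of Piezo2, Trpv2 and Trpv4 was not tested.

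**Figure D4:**
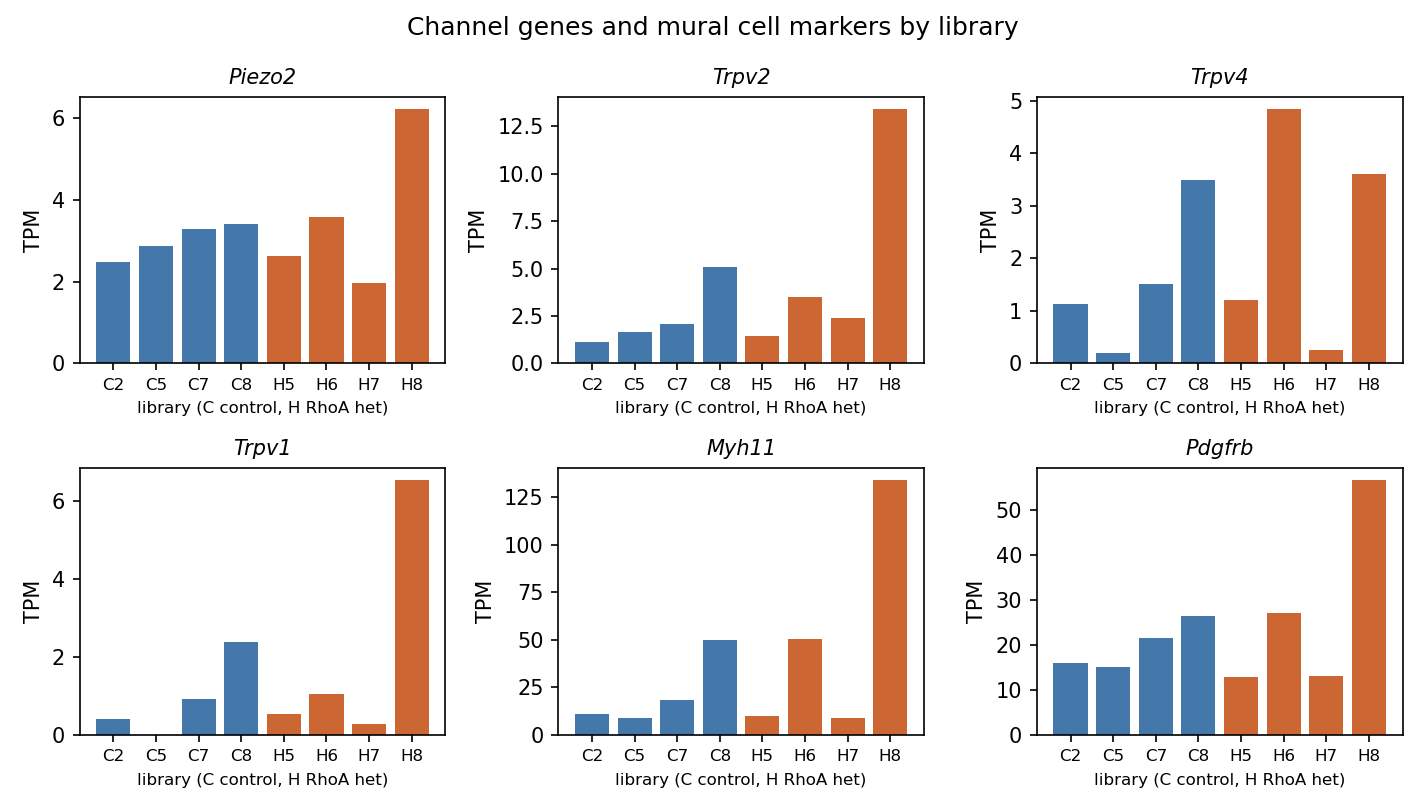
Deposited TPM in each library (C, control; H, RhoA het; bars from 0) for Piezo2, Trpv2 and Trpv4, for the related Trpv1, and for the mural markers Myh11 and Pdgfrb. In each panel the 3 tallest bars are C8, H6 and H8. The genes plotted were drawn from those with this pattern, which 2 of 7 mural markers and 2 of 11 other TRP genes tested had. H8 reaches 13.4 TPM for Trpv2 and 134 TPM for Myh11, and the tallest Trpv4 bar is H6 at 4.84 TPM.

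Other genes of the same families were then counted from lists of related genes. Of 25 other TRP genes, which include the lysosomal mucolipins and the polycystins, 11 passed the filter on low counts and 0 of these were called in either direction (edgeR adjusted p under 0.05, with 0% of all genes called). Their median log2 fold change was 0.25, against -0.00071 over all genes tested. Mcoln1, the lysosomal calcium channel, was the most abundant at 14.6 ± 1.97 TPM in control and 16.1 ± 1.74 TPM in RhoA het (SD, n = 4 each). Pkd2, the polycystin channel of primary cilia, was at 6.62, 8.19, 7.10 and 7.46 TPM in control replicates 2, 5, 7 and 8 and at 10.9, 8.25, 9.11 and 8.71 TPM in RhoA het replicates 5, 6, 7 and 8. All RhoA het libraries lay above all control libraries for Pkd2, in TPM and in CPM, as for 1.02% of genes tested in that direction. The log2 fold change of Pkd2 was 0.25 (SE 0.12, edgeR unadjusted p 0.0718, adjusted p 1.00; exact permutation p 0.0286, the smallest possible). Trpm4 and Trpm5, channels that calcium opens, had log2 fold changes of 0.49 and 0.34 (edgeR unadjusted p 0.196 and 0.245). The value of Trpm4 rested on RhoA het replicates 6 and 8: it was -0.31 without both and 0.072 when blocked by replicate number, with differences of -0.53, -0.16 and 0.93 on the log2 CPM scale for numbers 5, 7 and 8. Trpv1, the capsaicin receptor, named here after its values were seen, was at 6.54 TPM in RhoA het replicate 8 and 2.38 TPM in control replicate 8, and at 0 to 1.03 TPM in the other 6 libraries.

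A second list held 19 further mechanosensitive channels and channel partners, of which 13 passed the filter and 0 were called (0% of all genes); 1 of the 13 had an unadjusted p under 0.05 in edgeR, against 2.38% of all genes. That gene was Lrrc8a, the required subunit of the volume-regulated anion channel. It was at 48.2, 50.5, 42.7 and 37.2 TPM in control replicates 2, 5, 7 and 8 and at 64.9, 64.8, 61.0 and 55.4 TPM in RhoA het replicates 5, 6, 7 and 8. The groups did not overlap in TPM, but they did in CPM. The log2 fold change was 0.37 (SE 0.15, edgeR unadjusted p 0.0373, adjusted p 1.00; exact permutation p 0.114). The partner subunit Lrrc8e had a log2 fold change of -0.32 (edgeR unadjusted p 0.195), and Stom, a stomatin that modulates ion channels, one of 0.47 (unadjusted p 0.197). For Stom the value was -0.40 without RhoA het replicates 6 and 8 (edgeR unadjusted p 0.0476, adjusted p 0.999) and 0.072 when blocked by replicate number, with differences of -0.47, -0.21 and 0.95 on the log2 CPM scale for numbers 5, 7 and 8. Tmem120a was the most abundant of this list at 102 ± 15.9 TPM in control and 93.3 ± 19.6 TPM in RhoA het (SD, n = 4 each). Among 32 genes of calcium signalling downstream of such channels, all 32 passed the filter, 0 were called (0% of all genes), 0 had an unadjusted p under 0.05 (2.38% of all genes) and the median log2 fold change was 0.043. The smallest p values belonged to Camk2g, a calmodulin-dependent kinase, to Itpr1, a calcium release channel, and to Atp2b4, a calcium pump of the plasma membrane. Their log2 fold changes were 0.41, 0.36 and 0.26 (edgeR unadjusted p 0.112, 0.117 and 0.13), and 0.10, -0.050 and 0.015 without RhoA het replicates 6 and 8. Calm2, a calmodulin gene, was the most abundant of the list and had a log2 fold change of -0.092 (edgeR adjusted p 1.00).

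For each member, the 3 genes with the most similar pattern were found by Pearson's r of log2 CPM over the 8 libraries, out of 15372 other genes with a symbol. With so many genes compared over 8 libraries that share numbers, high values of r arise by selection, and they are a description only. Piezo1 was most like Kcnab3 (r 0.97), Itm2b (0.965) and Gon4l (0.965). For Piezo2 the genes were Ldlrad4 (0.985), Ccn3 (0.984), which encodes a matricellular protein, and Actg2 (0.975), the smooth muscle gamma actin. Tmem63a was nearest to Daam2 (0.964), a formin, Dgkd (0.951) and Dock5 (0.951), and Tmem63b to 2900089D17Rik (0.973), Arl6ip6 (0.962) and Plekha1 (0.959). Trpm7 was nearest to Kdm5a (0.985), a histone demethylase, Trmt13 (0.972) and Ccdc186 (0.971). Trpc1 was nearest to Fbln1 (0.975), Mief2 (0.975) and Timp1 (0.971), a metalloprotease inhibitor. For Trpv2 they were Elovl5 (0.982), a fatty acid elongase, Scn4b (0.977), a sodium channel subunit, and Gm45073 (0.977). For Trpv4, 4430402I18Rik (0.973) and Cys1 (0.952) are given. No member of the set was among the 3 nearest genes of another.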

How the data were processed

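Counts per gene were deposited by the authors: per the file headers, paired-end STAR alignments on mm39 were counted by featureCounts 1.6.4, without strand, on the exons of GENCODE mouse release 34. The command named 10 alignment files; the table holds 8 libraries and the others were not analysed here. TPM values were deposited by the authors and matched a recalculation from counts and gene lengths (largest relative difference 5e-15). FastQC, cutadapt and DESeq2 are named in the submitters' processing notes. All value columns belong to a sample.

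Tests used the deposited counts with edgeR 4.0.16 (R 4.3.3): filterByExpr, which left 15660 of 57180 genes, TMM scaling and the quasi-likelihood F test over all 8 libraries without covariates, with Benjamini-Hochberg adjustment over all genes and a threshold of 0.05. Standard errors came from the F statistic. Log2 CPM used a prior count of 2, and exact permutation tests, two-sided, ran over 70 assignments. Symbols were matched by identifier for 51884 genes. On simulated counts for this comparison (15296 genes), 80% of genes raised by a log2 fold of 2 and 18% of those raised by 1 were called, and 81.8% and 31.2% of those lowered as much.

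Numbers 5, 7 and 8 occur in both groups. Same-numbered deviations from the group means correlated at 0.584, 0.335 and 0.502 (mean 0.474). The mean of -0.236 for different numbers largely follows from centring each group on its own mean, and is no separate evidence. The numbers were taken to pair the libraries, on the data alone. The main fit leaves this pairing out. In the same 6 libraries, the common coefficient of variation between libraries in edgeR was 31.4% without the replicate block and 17.4% with it. Alternatives were other scalings, no filter, DESeq2 1.42.0, limma 3.58.1 (voom, log2(TPM + 1) and log2(TPM + 0.1)), the replicate block, and leaving out libraries. Members, lists and alternatives were chosen with earlier results of these data known. The rule for named genes took all members; per related list, genes past the threshold or else the 3 smallest p and the 2 highest TPM; the 3 most similar genes per member; and markers needed to describe a library. A few items that this rule names are not reported here.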

Additional observations from a re-analysis of the deposited data

Results flagged for a closer look

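Piezo1 in control was flagged because 1 library stood apart from the others: control replicate 7 had a log2 CPM of 4.57, and the other controls lay between 5.06 and 5.15, a gap of 0.842 of the whole range of the group. It was 1 of 16 sets of 4 libraries tested (8 genes in both groups), and chance flags about 5% of such sets. Without this library the log2 fold change of Piezo1 was 0.11 in place of 0.23.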

How the results depend on the processing

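Over the 8 members and 18 alternatives each, no member passed an adjusted p of 0.05. Piezo1, Tmem63b and Trpm7 kept their direction in all of them. With 1 library left out at a time, the log2 fold changes ran from 0.11 to 0.31 for Piezo1, -0.21 to 0.37 for Piezo2, -0.099 to 0.096 for Tmem63a, 0.054 to 0.23 for Tmem63b, -0.074 to 1.63 for Trpv2, -0.064 to 1.27 for Trpv4, -0.0039 to 0.15 for Trpc1 and 0.055 to 0.29 for Trpm7, and 0 genes were called each time. With RhoA het replicates 6 and 8 both left out, chosen after seeing the data, they turned to -0.53 for Piezo2, -0.13 for Tmem63a, -0.50 for Trpv2, -1.31 for Trpv4 and -0.024 for Trpc1, and among the related genes to -0.31 for Trpm4, -0.40 for Stom and -0.050 for Itpr1. By limma-voom with quality weights they turned to -0.10 for Piezo2, -0.00086 for Tmem63a and -0.52 for Trpv4. With the replicate block over the pairs 5, 7 and 8 they turned to -0.043 for Piezo2, -0.0012 for Tmem63a and -0.14 for Trpv4, and Trpv4 was at -0.16 in the same 6 libraries without the block; the cause was not tested. The replicate block called 2 of 15714 genes, neither a member, where the fit without it called 0, and it changed no other call. With CPM per kilobase in place of TPM, 6 of 8 members kept their rank, and Piezo1 and Tmem63b exchanged theirs. Depth limits Trpv4 most, with 5 fragments in 1 library.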

Other observations

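Of the 25 other TRP genes, 14 did not pass the filter on low counts. Trpc6, a receptor-operated channel, was at 2.36 TPM in RhoA het replicate 8 and at 0.193 to 0.765 TPM in the other 7 libraries, and RhoA het replicate 8 was the highest library for 10 of the 24 TRP genes detected and for 4 of the 8 members. Among the stomatin and anion channel genes, Stom was at 94.3 TPM in RhoA het replicate 8 and 75.0 TPM in RhoA het replicate 6, against 30.8 to 44.9 TPM elsewhere. With the replicate block over the pairs 5, 7 and 8, Lrrc8a had a log2 fold change of 0.43 (edgeR unadjusted p 0.00264, adjusted p 0.458) and Tmem120a one of -0.40 (unadjusted p 0.00589, adjusted p 0.612), while 5.26% of all genes had an unadjusted p under 0.05 in that fit.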
